A study of Mus musculus with 4 samples.

Results

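Genes for voltage-gated sodium and calcium channels were read in cortex RNA from mouse pups that all carried floxed Mkk7 and differed in Emx1-Cre. The genes were chosen by name: protein-coding genes of the expression table called Scn followed by a number and a or b, or called Cacna1, Cacna2d, Cacnb or Cacng followed by a letter or number. This gave 40 of the 55414 genes of the table: 10 sodium channel α subunits, 4 sodium channel β subunits, 10 calcium channel α1 subunits, 4 α2δ subunits, 4 calcium channel β subunits and 8 γ subunits. All 4 libraries are of cerebral cortex from C57BL/6J mice on postnatal day 1. The 2 libraries labelled Control (replicates 2 and 3) had the genotype Mkk7flox/flox, and the 2 labelled cKO (replicates 2 and 3) the genotype Mkk7flox/flox Emx1-Cre, so both groups carried the floxed alleles and only the second carried Cre. The Emx1 promoter drives Cre in dorsal telencephalic progenitors, so that recombination reaches cortical excitatory neurons and part of the glia, whereas most inhibitory neurons of the cortex arise elsewhere. The labels name no animal for a library. The sex-linked genes given below show that the cKO libraries came from different animals; for the Control libraries this is not stated, and the spread between them may be technical.

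A voltage-gated sodium channel consists of a large α subunit that forms the pore and smaller β subunits that set its gating and place it in the membrane. Sodium channels start and carry the action potential, and in the forebrain Scn3a is known as the α subunit of fetal and newborn neurons, Scn2a as the main one of young excitatory neurons, and Scn8a and Scn1a as ones that gain weight later. A high-voltage calcium channel is built in the same way from a pore-forming α1 subunit with an α2δ and a β subunit, and couples depolarisation to transmitter release, dendritic signalling and transcription. The γ genes are named after the γ1 subunit of the muscle calcium channel, but several of them encode TARPs, proteins that carry AMPA-type glutamate receptors to the synapse.

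Library totals lay between 19421491 and 22511247 estimated counts, of which the 40 genes took 0.107% to 0.127%. Map2k7, which encodes MKK7, had 38.4 CPM (Control 2) and 30.4 CPM (Control 3), against 47.9 CPM (cKO 2) and 48.2 CPM (cKO 3), where CPM are counts scaled to library size, so the whole-gene level was not lower with Cre. The part of the gene that was floxed is not given in the sources used here, so this level does not test the deletion. Each direction below therefore rests on the labels alone. Xist had 1145, 1004 and 1218 counts in Control 2, Control 3 and cKO 2 and 0 in cKO 3, where the Y-linked gene Ddx3y had 985 against 0 elsewhere; cKO 3 thus came from a male and the others from females, and sex and replicate cannot be told apart within the cKO group.

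Of the 40 genes, 34 had enough counts to be tested and none passed an adjusted p of 0.05 (edgeR's quasi-likelihood test, Benjamini-Hochberg adjustment over all 17017 tested genes; DESeq2 and limma-voom also called none). Among all tested genes 0.0470% passed, 0.00588% higher and 0.0411% lower. The fold change was positive for 21 of the 34 genes (61.8%), against 49.8% of all tested genes. At an unadjusted p below 0.05, 1 channel gene was higher in the libraries labelled cKO (Cacng5) and 4 were lower (Scn2a, Cacna1h, Cacng1 and Cacng3). Over all genes 5.28% were higher and 5.66% lower by that rule, and the channel genes had 2.94% and 11.8%, from 1 and 4 genes. The Control and cKO libraries did not overlap for 14 of the 34 genes, 7 higher and 7 lower, or 41.2%, against 44.1% of all tested genes (22.0% higher and 22.2% lower). The fold changes of Cacng5, Scn2a, Cacna1h, Cacng1 and Cacng3 kept their sign when any 1 library was left out. Their size moved, for Scn2a between -0.89 and -0.31 on the log2 scale. A fit without 1 library leaves 1 library in a group and has less power. How many genes pass in it cannot show on which library a difference rested, and is not given.

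Sequence upstream of the start was at hand for 30 of the 40 genes, as 41 start sites in RefSeq on build GRCm38.p6. The 250 bases before the start are shown for Scn2a, lower, and Cacng5, higher, as examples of genes past the unadjusted threshold in each direction. Capitals mark matches, on either strand, to the AP-1 motif TGANTCA, the CRE motif TGACGTCA, the GC box GGGCGG, the TATA motif TATAAA and both parts of the RE1 element bound by the repressor REST, GGACAGCGC and TTCAGCACC. The first 2 are read by the AP-1 and ATF factors that JNK kinases phosphorylate, and REST is a repressor of neuronal genes.
Scn2a, upstream start, plus strand, chr2:65620519-65620768: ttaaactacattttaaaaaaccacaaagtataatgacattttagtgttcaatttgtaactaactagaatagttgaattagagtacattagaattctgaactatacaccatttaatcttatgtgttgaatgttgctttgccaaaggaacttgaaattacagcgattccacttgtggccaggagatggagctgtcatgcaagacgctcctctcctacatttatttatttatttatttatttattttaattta
Scn2a, downstream start, plus strand, chr2:65668436-65668685: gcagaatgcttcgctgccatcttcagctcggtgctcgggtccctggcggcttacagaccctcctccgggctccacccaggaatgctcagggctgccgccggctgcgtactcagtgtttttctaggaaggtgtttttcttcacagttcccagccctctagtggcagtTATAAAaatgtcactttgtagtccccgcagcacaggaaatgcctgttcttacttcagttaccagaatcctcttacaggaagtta
Cacng5, upstream start, minus strand, chr11:107915056-107915305: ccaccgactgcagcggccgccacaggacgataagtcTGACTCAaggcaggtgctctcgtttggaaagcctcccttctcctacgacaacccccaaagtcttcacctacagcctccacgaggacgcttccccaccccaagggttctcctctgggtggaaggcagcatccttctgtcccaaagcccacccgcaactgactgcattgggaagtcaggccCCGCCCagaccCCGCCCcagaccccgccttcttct
The upstream Scn2a window had no match and 29.6% G and C, and the downstream one had a TATA motif and 53.2%. The Cacng5 window held 1 AP-1 motif and 2 GC boxes, with 62.0% G and C, and the window of its second start had no match. Over the 41 windows of channel genes, AP-1 matched in 1 (6.75% of all 32851 windows), CRE in 0 (1.55%), the GC box in 15 (32.7%), TATA in 2 (12.4%), and the RE1 parts in 0 each (0.304% and 0.301%). A match is a description of the letters and not evidence of binding, and the absence of one says only that these letters are not in the window.

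Per transcript length, the most abundant transcripts of these genes were those of β subunits and of the TARP gene Cacng4. In TPM, the authors' values scaled to length, which can be compared between genes, Cacnb3, Cacng4 and Scn3b led with means over the 4 libraries of 130.9, 97.1 and 57.3. Below them, Cacnb1, Cacng3, Cacna2d3, Scn2a and Scn3a had means of 26.1, 18.2, 17.2, 14.9 and 10.5. Summed over each family, sodium α transcripts came to 27.8 to 40.3 TPM and sodium β transcripts to 71.2 to 94.1 TPM, whereas the calcium channel α1, α2δ, β and γ families came to 28.4 to 36.4, 22.3 to 37.9, 157 to 177 and 135 to 147 TPM. In each library the auxiliary β transcripts thus outnumbered the pore-forming ones per length. The γ sum was also higher, but Cacng4, which encodes a TARP, held 64.6% to 72.4% of it, so it does not count channel subunits alone. In each of the 6 families the 2 lowest sums were those of Control 3 and cKO 2.

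**Figure D1:**
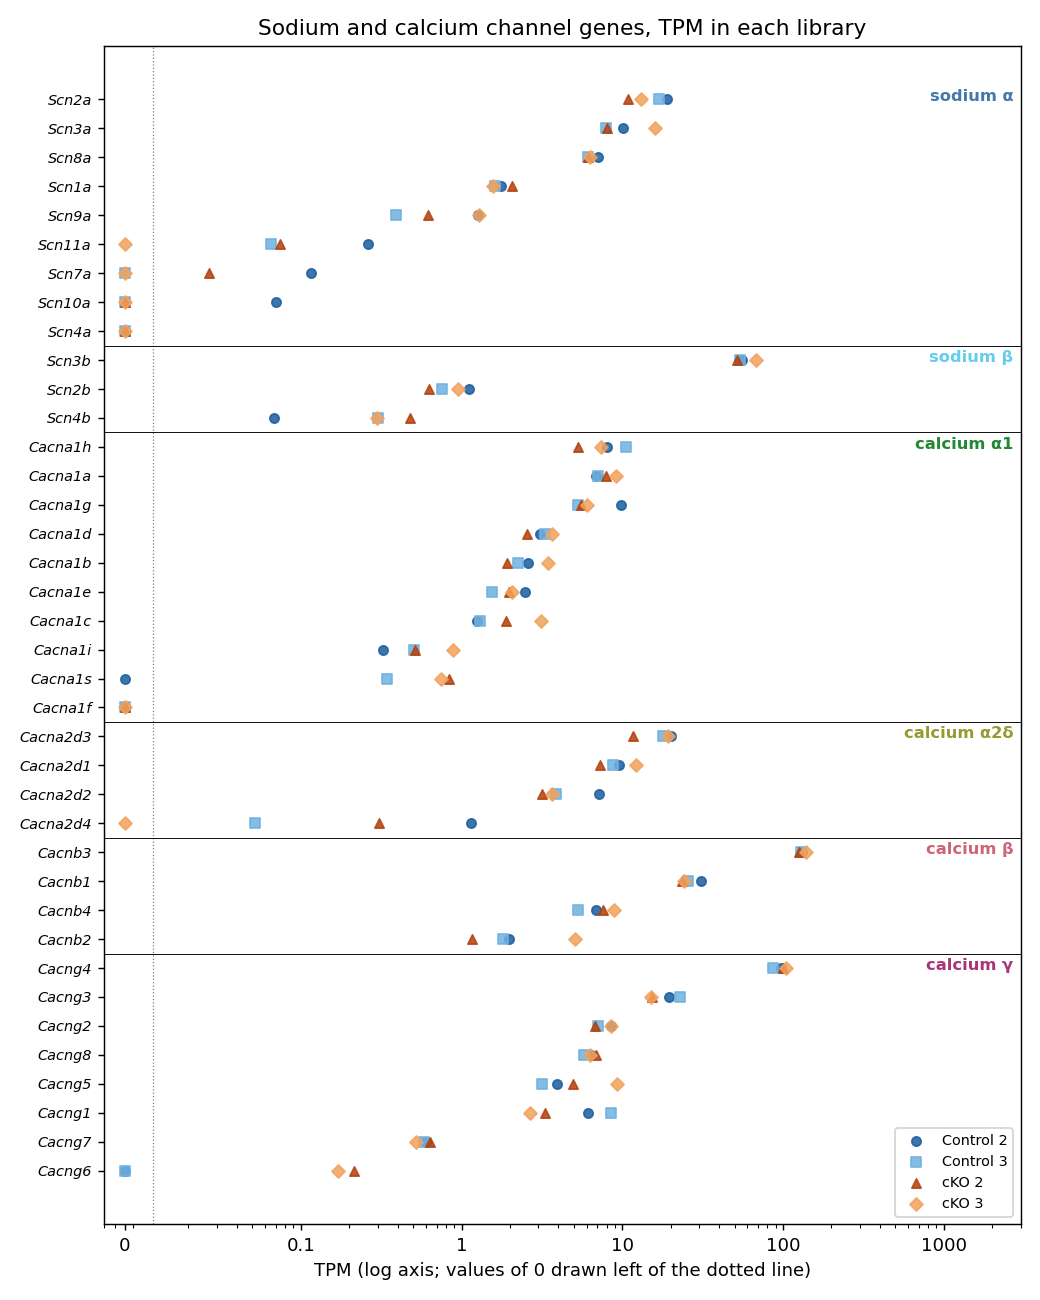
TPM of 38 channel genes (log axis, values of 0 left of the dotted line) in the 4 libraries, by subunit family and ordered by mean within it. Cacnb3 (mean 130.9), Cacng4 (97.1) and Scn3b (57.3) lead.

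Scn2a, which encodes the pore of Nav1.2, was the sodium channel gene with the clearest difference (ENSMUSG00000075318.14; chromosome 2, 65451115 to 65597791, GRCm39). It was read at 100.3 CPM (Control 2) and 90.1 CPM (Control 3), against 51.2 CPM (cKO 2) and 76.6 CPM (cKO 3). Both cKO libraries lay below both Control libraries, but they differed from each other by more than the Control libraries did. On the log2 scale the difference was -0.57 (SE 0.20, with n = 2 in each group; unadjusted p = 0.0242, edgeR adjusted p = 0.406), a level 0.672 times that of the Control. It was -0.31 without cKO 2 and -0.89 without cKO 3, so cKO 2 gave the larger part of the difference.

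Scn3a, the Nav1.3 gene of the fetal and newborn brain, lies next to Scn2a, 53.1 kb away on the opposite strand (ENSMUSG00000057182.16; chromosome 2, 65287462 to 65397971). Its levels were 46.1 and 38.6 CPM in Control 2 and Control 3 and 42.4 and 65.5 CPM in cKO 2 and cKO 3, so the groups overlapped. The log2 fold change was 0.35 (SE 0.23, edgeR adjusted p = 0.624), and 0.0020 without cKO 3, which alone stood high. The balance of both genes within a library was also compared. The ratio of Scn3a to Scn2a counts was 0.459 and 0.429 in Control 2 and Control 3 and 0.829 and 0.854 in cKO 2 and cKO 3. The count ratio was thus nearly the same within each group and higher in both cKO libraries, with a log2 difference of 0.92. The exact two-sided permutation test gave p = 0.333, the smallest that 2 libraries against 2 can give, so this design cannot show the difference at the threshold. The ratio was chosen after its values were seen. It differed by 0.93 on the log2 scale with TPM (0.532 and 0.473 against 0.741 and 1.24), where the cKO libraries lay further apart than in counts. With counts it differed by 0.87 to 0.97 when any 1 library was left out.

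As a share of all sodium α TPM, Scn2a took 46.9% and 50.8% in Control 2 and Control 3 and 39.0% and 33.8% in cKO 2 and cKO 3, a difference of -12.5 percentage points. The share of Scn3a was 24.9% and 24.0% in the Control libraries and 28.9% and 41.7% in cKO 2 and cKO 3, a difference of 10.8 points that fell to 4.42 without cKO 3 and stood at 17.3 without cKO 2. Neither share overlapped between the groups (exact two-sided permutation p = 0.333 for each, the smallest possible). The estimated counts of Scn1a, Scn2a, Scn3a and Scn9a were not whole in any library, and the same held for Cacna1d, Cacnb4 and Cacng2. The last 3 each overlap a gene whose total was also not whole (Chdh 89.42, A430018G15Rik 53.69 and A730060N03Rik 110.46 counts). Scn2a and Scn9a also each overlap such a gene, with few counts (Gm52953 7.62 and Gm13629 1.01). The authors' counting may thus have divided reads among close relatives or with overlapping genes, and the values of these genes carry that uncertainty.

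**Figure D2:**
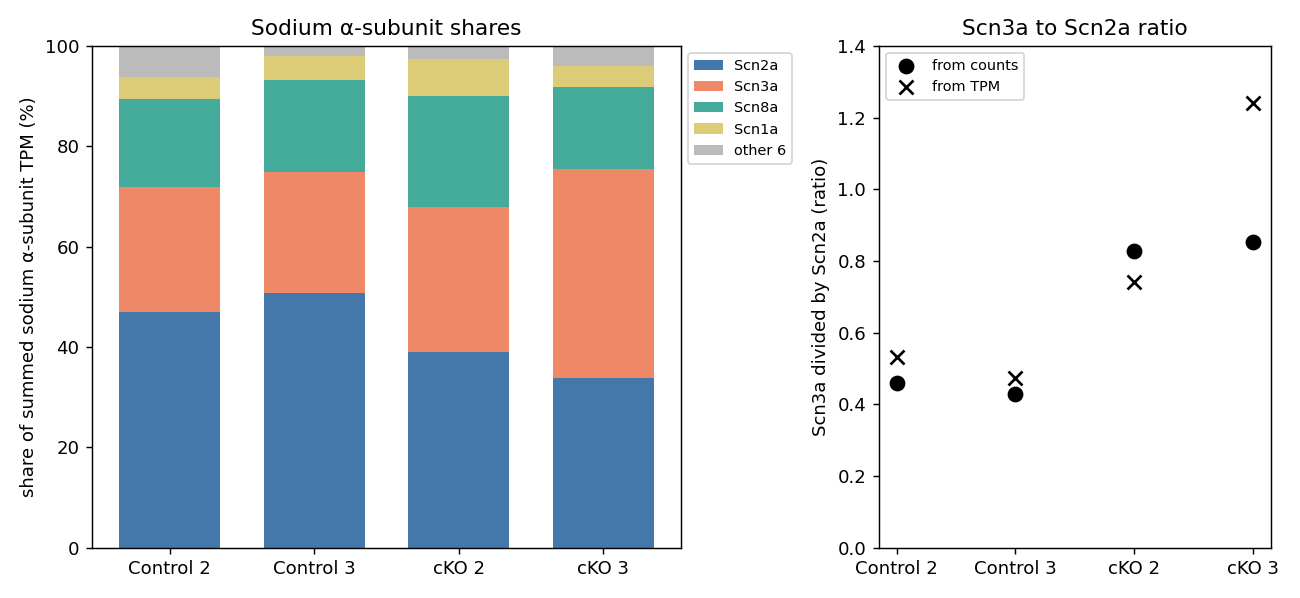
Left, share (%) of the summed sodium α TPM held by Scn2a, Scn3a, Scn8a, Scn1a and the 6 other α genes in each library. Right, Scn3a divided by Scn2a in each library, from counts (circles) and from TPM (crosses): the count ratio is 0.459 and 0.429 in the Control libraries and 0.829 and 0.854 in the cKO libraries.

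The sodium α genes of the mature brain stood lower and did not separate the groups. Scn8a, which encodes Nav1.6 of the axon initial segment and node, was at 35.9 CPM (Control 2) and 27.0 CPM (Control 3), against 30.3 CPM (cKO 2) and 32.5 CPM (cKO 3) (log2 fold change -0.0016, SE 0.21). Scn1a, the Nav1.1 gene known for its role in inhibitory neurons, was at 10.5, 4.87, 5.63 and 8.80 CPM in Control 2, Control 3, cKO 2 and cKO 3 (log2 fold change -0.09, SE 0.45). Its neighbour Scn9a, 39.2 kb away and best known from pain-sensing neurons, was at 6.06, 2.28, 2.74 and 6.04 CPM in the same order. Both genes were thus high in Control 2 and cKO 3 and low in Control 3 and cKO 2, a split across the genotypes in CPM. In TPM Scn9a kept that split, but Scn1a did not: it was at 1.76, 1.62, 2.06 and 1.57 TPM in that order, with cKO 2 the highest library and cKO 3 the lowest. Too sparse to test were Scn11a, Scn7a and Scn10a: Scn11a had 24, 6, 7 and 0 counts in that order, Scn7a 12, 0, 3 and 0, and Scn10a 7 counts in Control 2 alone. Scn4a, the skeletal muscle α subunit, had 0 counts in each library, which allows up to 0.133 to 0.154 CPM (3 counts of a library's total, counting error only).

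Among the sodium β genes, Scn3b was the most abundant sodium channel transcript of the newborn cortex in these libraries. Scn3b stood at 163 CPM (Control 2) and 160 CPM (Control 3), against 168 CPM (cKO 2) and 193 CPM (cKO 3); the cKO libraries were both higher, by little against their own spread (log2 fold change 0.17, SE 0.12, edgeR adjusted p = 0.667; 0.26 without cKO 2 and 0.059 without cKO 3). Scn3b held 67.8% and 70.6% of the sodium β TPM in Control 2 and Control 3 and 72.2% and 72.4% in cKO 2 and cKO 3 (exact two-sided permutation p = 0.333, the smallest possible). Scn2b and Scn4b, which encode the β subunits that bind the α subunit by a disulfide bond, were low, with 42 to 69 and 5 to 37 counts per library; their log2 fold changes were -0.26 (SE 0.50) and 1.07 (SE 0.92), and leaving out 1 library gave -0.49 to 0.010 and 0.35 to 2.52.

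Of the 10 calcium channel α1 genes, 9 were tested, and 8 of these had a positive fold change, none past the threshold (median 0.32, against -0.0021 and 49.8% positive over all tested genes). The signs varied with the scale and the libraries: on the TPM scale Cacna1g, Cacna1d and Cacna1e were negative (-0.39, -0.030 and -0.00072), without cKO 3 Cacna1b and Cacna1c (-0.25 and -0.22), and without Control 3 Cacna1e (-0.16). The gene with a negative value in the main test was Cacna1h, which encodes the low-voltage T-type channel Cav3.2 (ENSMUSG00000024112.17; chromosome 17, 25593259 to 25652757). Cacna1h stood at 31.5 CPM (Control 2) and 37.9 CPM (Control 3), against 23.6 CPM (cKO 2) and 26.2 CPM (cKO 3), and the groups did not overlap. Its log2 fold change was -0.48 (SE 0.20; unadjusted p = 0.0458, edgeR adjusted p = 0.450), with values of -0.34 to -0.60 when 1 library was left out. The other T-type genes lay on the other side: Cacna1g, the Cav3.1 gene, was at 14.4 and 11.5 CPM in the Control libraries and 16.4 and 15.9 CPM in the cKO libraries, and Cacna1i, the Cav3.3 gene, at 2.34 and 3.81 against 4.05 and 6.09 CPM. Their log2 fold changes were 0.32 (SE 0.25) and 0.72 (SE 0.47; edgeR adjusted p = 0.611). That of Cacna1g was 0.16 without Control 3 and 0.49 without Control 2; that of Cacna1i was 0.41 without Control 2, 1.11 without Control 3 and 0.40 without cKO 3. The direction of Cacna1g turned on the TPM scale, where Control 2 was the highest library at 9.86 TPM against 5.27, 5.50 and 6.01 in Control 3, cKO 2 and cKO 3 (log2 ratio of group means -0.39).

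The channels of transmitter release showed small differences. Cacna1a, which encodes Cav2.1, the P/Q-type channel of nerve terminals, was at 14.9 CPM (Control 2) and 13.5 CPM (Control 3), against 15.0 CPM (cKO 2) and 17.9 CPM (cKO 3) (a log2 difference of 0.22, SE 0.24, edgeR adjusted p = 0.780). In TPM it stood at 6.86 and 7.05 against 7.94 and 9.16, and its share of the α1 family was 19.9% and 22.0% against 27.9% and 25.2%, a difference of 5.62 points that came to 1.34 points with CPM per kb of gene length in place of TPM. Its fold change was 0.14 without Control 3, 0.34 without cKO 2 and 0.078 without cKO 3. The N-type gene Cacna1b differed by 0.11 (SE 0.27) and the R-type gene Cacna1e by 0.13 (SE 0.26) on the log2 scale. Of the 2 neuronal L-type genes, Cacna1d had a value of 0.35 (SE 0.33; 0.030 without Control 2, 0.75 without Control 3 and 0.17 without cKO 3) and Cacna1c, the Cav1.2 gene, one of 0.51 (SE 0.39). Cacna1c was read at 12.6, 13.2 and 11.1 CPM in Control 2, Control 3 and cKO 2 and at 25.6 CPM in cKO 3, so its difference in CPM came from cKO 3 and was -0.22 without it. In TPM both cKO libraries were above both Control libraries, at 1.89 and 3.11 against 1.25 and 1.30 TPM (log2 ratio of group means 0.97). Cacna1c and Cacna1d each overlap a gene on the other strand (Dcp1b by 21638 bases and Dcp1a by 11921 bases), whose reads a kit without strand marks cannot tell apart where exons overlap. The muscle gene Cacna1s had 0 to 15 counts per library, and the retinal gene Cacna1f had 0 counts in all of them.

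In TPM, no α1 gene dominated its family: Cacna1h, Cacna1a and Cacna1g had mean levels of 7.82, 7.75 and 6.66 TPM, and their ranges over the libraries overlapped. Cacna1d, Cacna1b, Cacna1e and Cacna1c followed with 3.14, 2.55, 2.01 and 1.89 TPM, again with overlapping ranges between neighbours, and Cacna1i stood below them at 0.556 TPM. By CPM per kb of gene length, Cacna1h led in each library instead. It held 29.4%, 34.9%, 23.4% and 20.8% of the family in Control 2, Control 3, cKO 2 and cKO 3. Cacna1a held 13.7%, 12.2%, 14.5% and 14.0% in that order. The α2δ genes, whose products bring the channel to the membrane, were led by Cacna2d3 and Cacna2d1 (means 17.2 and 9.43 TPM). Cacna2d3 was at 55.4 CPM (Control 2) and 49.6 CPM (Control 3), against 29.3 CPM (cKO 2) and 46.2 CPM (cKO 3); the groups did not overlap, although cKO 3 came close to Control 3 (log2 fold change -0.47, SE 0.24, edgeR adjusted p = 0.517). It was -0.18 without cKO 2 and -0.84 without cKO 3, and -0.31 as a ratio of TPM means. Cacna2d1 was at 42.3 and 35.4 CPM in the Control libraries and 33.4 and 49.2 CPM in the cKO libraries, with full overlap (log2 fold change 0.09, SE 0.23). Cacna2d2 was at 21.9 and 16.2 against 13.9 and 14.0 CPM, both cKO libraries below both Control libraries (log2 fold change -0.45, SE 0.25, edgeR adjusted p = 0.555; -0.22 without Control 2, and -0.69 as a ratio of TPM means). Cacna2d4, known from the retina, had 17, 2, 29 and 0 counts in Control 2, Control 3, cKO 2 and cKO 3, and lies across the gene Lrtm2 on the other strand, which had 1251 counts in all.

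**Figure D3:**
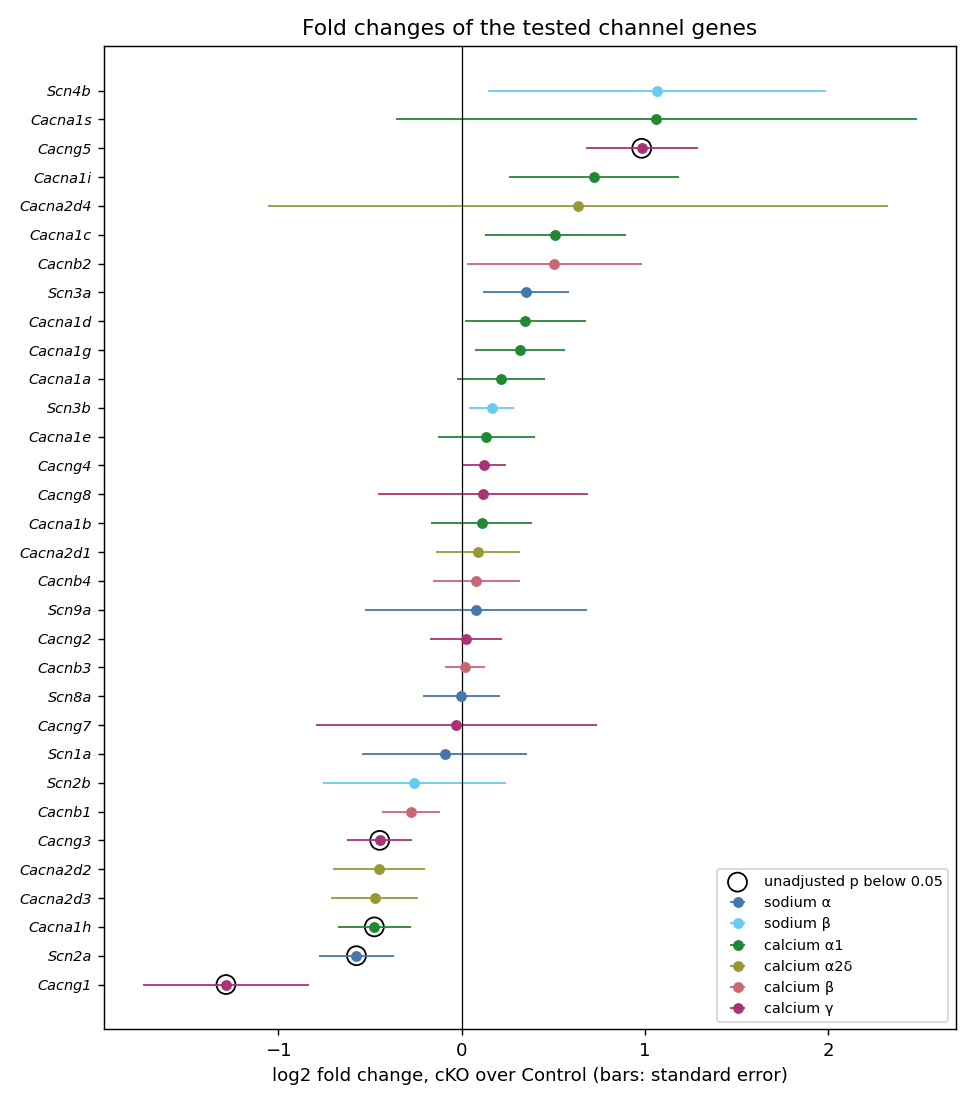
Log2 fold change (cKO over Control) of 32 tested channel genes with its standard error, by subunit family; rings mark the 5 genes with an unadjusted p below 0.05. Scn2a, Cacna1h, Cacng1 and Cacng3 lie below 0 and Cacng5 above, and no gene drawn passed the adjusted threshold.

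The cytosolic calcium channel β genes, whose products bind the α1 subunit and release it from the endoplasmic reticulum, were led by Cacnb3. It stood at 226 CPM (Control 2) and 231 CPM (Control 3), against 235.5 CPM (cKO 2) and 228 CPM (cKO 3). The groups overlapped closely, with a log2 fold change of 0.02 and an SE of 0.11. Cacnb3 held 76.7% to 79.7% of the β TPM in every library. Cacnb1 was at 65.6 and 57.4 CPM in the Control libraries and 53.6 and 48.0 CPM in the cKO libraries; both cKO libraries were lower (log2 fold change -0.28, SE 0.16, edgeR adjusted p = 0.570; -0.18 without Control 2). Its share of the β TPM was 18.1% and 15.9% against 15.0% and 13.6% (exact permutation p = 0.333). Cacnb4, the β gene of the lethargic mouse, had a log2 fold change of 0.08 (SE 0.24). Cacnb2 had one of 0.51 (SE 0.47), which rested on 9.85 CPM in cKO 3 against 4.05 to 5.33 CPM in the other 3 libraries and was -0.28 without cKO 3.

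The γ family held 3 of the 5 genes past the unadjusted threshold. Cacng5, which encodes the TARP γ5, was the one that was higher (ENSMUSG00000040373.13; chromosome 11, 107765431 to 107805881). It stood at 11.0 CPM (Control 2) and 9.03 CPM (Control 3), against 15.1 CPM (cKO 2) and 24.5 CPM (cKO 3), and both cKO libraries were above both Control libraries. The log2 fold change was 0.98 (SE 0.31; unadjusted p = 0.0140, edgeR adjusted p = 0.379). It was 0.59 without cKO 3 and 1.29 without cKO 2, so cKO 3 carried the larger part.

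Cacng1 and Cacng4 lie beside Cacng5 on chromosome 11, with gaps of 15.8 kb between Cacng1 and Cacng4 and 80.0 kb between Cacng4 and Cacng5, and the 3 genes had different fold changes. Cacng1, the γ1 subunit of the skeletal muscle channel (ENSMUSG00000020722.6; chromosome 11, 107594044 to 107607348), was at 4.74 CPM (Control 2) and 6.75 CPM (Control 3), against 2.79 CPM (cKO 2) and 1.93 CPM (cKO 3). Both cKO libraries were lower (log2 fold change -1.28, SE 0.45; unadjusted p = 0.0236, edgeR adjusted p = 0.406), and the sign was the same when any 1 library was left out (-1.01 to -1.57). Cacng4, which encodes the TARP γ4 of the developing brain, was at 169 and 156 CPM in the Control libraries and 173 and 181 CPM in the cKO libraries, a log2 fold change of 0.12 (SE 0.12; 0.062 without Control 3). The summed level of the 14 markers of skeletal and heart muscle was 35.8 and 30.6 TPM in the Control libraries and 25.8 and 14.4 TPM in the cKO libraries. Acta1 led the sum with 19.2, 15.1, 13.5 and 6.52 TPM, while Ckm was at 0 to 0.139 TPM. Of the 10 tested markers 8 had a negative log2 fold change and 2 a positive one, Actn3 (1.21, SE 0.66) and Myh3 (1.67, SE 1.39). The part of these markers in the Cacng1 value was not tested.

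Of the other TARP genes, Cacng3, which encodes γ3 of cortical neurons, was lower in both cKO libraries (ENSMUSG00000066189.10; chromosome 7, 122269715 to 122368616). It was at 38.2 CPM (Control 2) and 38.2 CPM (Control 3), against 27.4 CPM (cKO 2) and 28.7 CPM (cKO 3), the tightest agreement within groups among the 5 genes. The log2 fold change was -0.45 (SE 0.18; unadjusted p = 0.0376, edgeR adjusted p = 0.435), with values of -0.41 to -0.48 when 1 library was left out. Cacng2, which encodes stargazin, did not differ beyond its spread (log2 fold change 0.03, SE 0.20), with 33.3 and 27.9 CPM against 29.4 and 32.8 CPM. Cacng8 and Cacng7 were sparse, at 35 to 45 and 17 to 20 counts per library, and Cacng6 had 0 and 0 counts in the Control and 2 and 5 counts in the cKO libraries. As shares of the γ TPM, Cacng4 took 68.4% and 64.6% in Control 2 and Control 3 and 72.4% and 71.1% in cKO 2 and cKO 3, and Cacng3 13.8% and 16.8% against 11.1% and 10.3% (exact permutation p = 0.333 for each).

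Differences between libraries of the same group were as large as those between groups for many channel genes. Among the 31 tested genes with a mean of at least 1 CPM, 13 were highest in Control 2, 2 in Control 3, 5 in cKO 2 and 11 in cKO 3. The lowest library was Control 3 or cKO 2 for 12 genes each, and Control 2 or cKO 3 for 4 and 3. Over all genes of that level each library was the highest for 23.2% to 27.0% and the lowest for 21.7% to 28.1%. The median deviation from a gene's mean was 0.09, -0.09, -0.15 and 0.09 on the log2 scale in Control 2, Control 3, cKO 2 and cKO 3. In the same order, the 6 choroid plexus markers summed to 1102, 13.9, 445 and 7.86 TPM; their part in these deviations was not tested.

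**Figure D4:**
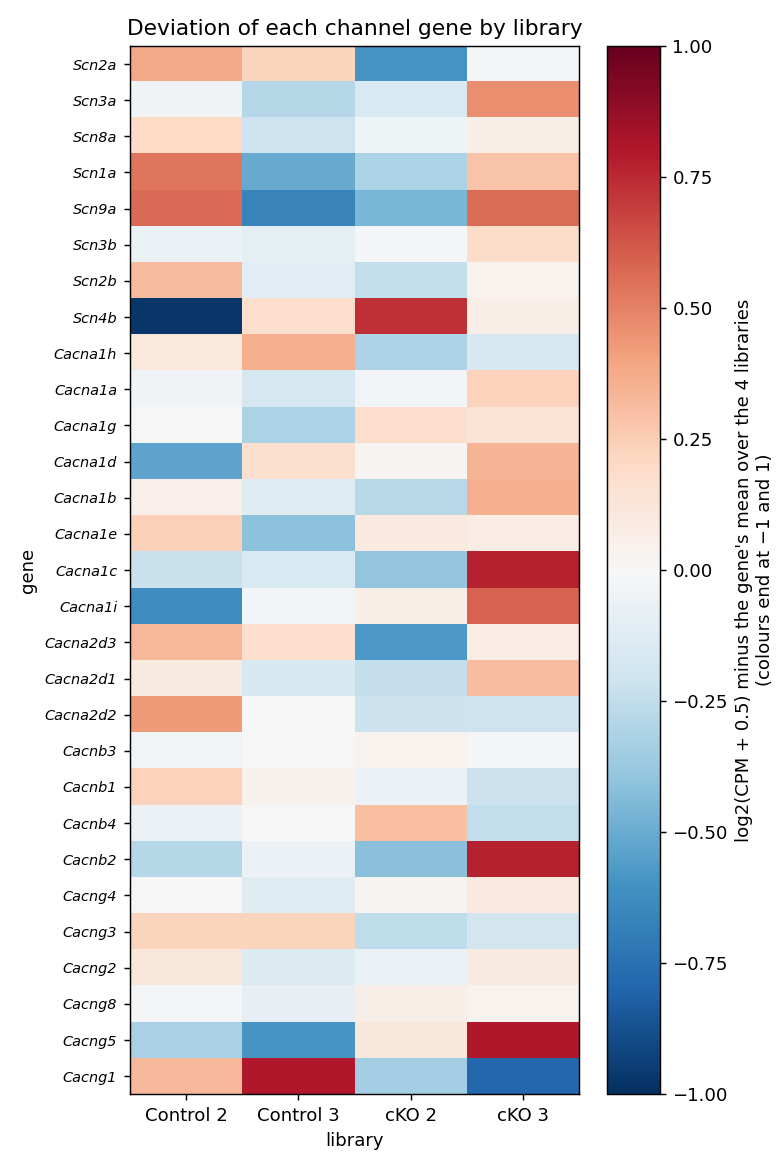
Deviation of log2(CPM + 0.5) from each gene's mean over the 4 libraries for 29 channel genes with a mean of at least 1 CPM (colours end at -1 and 1). Scn2a, Cacng3 and Cacna1h are above their mean in both Control libraries, Cacng5 in both cKO libraries, and Scn1a and Scn9a in Control 2 and cKO 3.

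The partners of these channels were examined in 4 lists, and none of their genes passed the adjusted threshold. At an unadjusted p below 0.05, 5.28% of all tested genes were higher and 5.66% lower. Of 21 tested partners of the sodium channels, 3 were higher and 0 lower at an unadjusted p below 0.05, and the median log2 fold change was 0.13. These 3 were Nrcam (0.45, SE 0.12) and Nfasc (0.35, SE 0.14), cell adhesion molecules of the axon initial segment and node, and Nedd4l (0.46, SE 0.15), a ubiquitin ligase that removes sodium channels from the membrane. Of 29 tested partners of the calcium channels 2 were higher and 2 lower (median 0.0073). Those with the smallest p were Bsn, which encodes the presynaptic scaffold bassoon (-0.78, SE 0.21), the tetraspanin gene Tspan13 (0.31, SE 0.10) and the calmodulin gene Calm3 (0.38, SE 0.13), and the other lower gene was Akap5 (-0.82, SE 0.31). Among 11 AMPA receptor genes and partners of the TARPs, 2 were higher and 1 lower (median 0.10): Shisa7 (0.67, SE 0.19) and the receptor gene Gria4 (0.51, SE 0.19) against Gsg1l (-0.85, SE 0.24). Of 20 genes of intracellular calcium release and removal 2 were higher and 1 lower (median 0.10), namely the calcium pump gene Atp2a2 (0.35, SE 0.12) and the exchanger gene Slc8a1 (0.40, SE 0.14) against Atp2a3 (-1.92, SE 0.48).

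Marker lists of cell types differed between the groups to different degrees. The 12 general neuron markers had 6 positive and 6 negative fold changes (median 0.03), with sums of 6186 and 6279 TPM in the Control and 5657 and 6299 TPM in the cKO libraries. All 18 striatal markers were negative (median -1.62), with summed levels of 635 and 489 TPM in the Control and 228 and 243 TPM in the cKO libraries. Of these, Rxrg passed the adjusted threshold (log2 fold change -3.73, SE 0.38, edgeR adjusted p = 0.0414). That call was lost when any 1 library was left out, but such a fit leaves 1 library in a group and has less power. Of 15 interneuron markers 14 were negative (median -0.37; 2159 and 1980 against 1788 and 1574 TPM), and of 12 markers of cortical excitatory neurons 10 were positive (median 0.17; 931.5 and 1056 against 1116 and 1233 TPM). These neuron types all use sodium and calcium channels. In bulk tissue, how many cells of a type a sample held, why it held them and how much RNA each gave cannot be told apart. The part of these neuron types in the values of Scn2a, Cacna1h and Cacng3 was not tested. Astrocyte and radial glia markers had a median of -0.17 over 12 genes and oligodendrocyte precursor markers one of 0.08 over 9, with 259.5 and 265.1 against 188 and 249.0 TPM for the latter. The medians were 0.34 for the meninges, 0.33 for endothelium, 0.18 for smooth muscle and pericytes, -0.75 for muscle, -0.19 for microglia, -1.18 for the choroid plexus and -0.64 for sensory neurons. No retina marker was tested, and 5 of 7 were at 0 in every library.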

How the data were processed

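RNA of 4 cortex libraries was extracted with TRIzol, treated with DNase and amplified with SMART-Seq v4, per the labels' protocols; this kit does not mark strand. The authors' table gives estimated counts and TPM per gene and library; DRAGEN and GRCm39 are named per the submitters' processing notes, and no version, annotation or setting is named there. The deposited TPM have the same sum in each library; between 12% and 13.5% of rows had non-integer estimates. The deposited counts were rounded. Genes were kept by edgeR's default filter (17017), scaled with TMM factors of 0.979 to 1.02 and tested with edgeR's quasi-likelihood test (edgeR 4.0.16, R 4.3.3) with genotype as the only term. Standard errors (SE) were derived as |log2 fold change| over √F. CPM are TMM-scaled. TPM served for levels and shares between genes, for sums over marker lists and, as an added alternative with no test, for ratios of group means. The test was also run on simulated counts. Its outcome there is not given, so the share of true changes that 2 libraries a group would miss is not stated.

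Individual values of 2 channel genes and some sequences are not reported here; both genes stay in the counts, medians and family sums. The channel genes, lists and tests were chosen with earlier results of these data known. Apart from those 2, values in every library are given for the 2 genes of each family with the highest TPM, those with an unadjusted p below 0.05, and those with a fold change of at least 0.5 on the log2 scale and no overlap; further genes were named after their values were seen. The 4 partner and 14 marker lists hold 231 genes, of which 2 did not match a symbol. Alternatives were DESeq2 1.42.0, limma-voom (limma 3.58.1), scaling by RLE or upper quartile, a stricter filter (mean CPM 1) or none, a replicate block, restriction to protein-coding genes and leaving out each library; TPM ratios of group means and the Scn3a to Scn2a ratio were added after seeing the data. Promoter windows are RefSeq sequences of another build than the table, used without coordinate conversion; in 35 of 41 the last 30 bases of the RefSeq entry, which lie past the start, were found in a GENCODE transcript of the gene on the same strand and in 0 on the opposite one. Chi-square over its degrees of freedom came to 13.3 for the Control pair and 29.5 for the cKO pair, far above the noise of read sampling. The libraries of a pair thus differed by more than read sampling. This cannot show whether the Control libraries came from different animals, as separate preparations of the same RNA can also differ by more.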

Additional observations from a re-analysis of the deposited data

How the results depend on the processing

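No channel gene passed the adjusted threshold in any of the 12 alternatives with a test (lowest edgeR, DESeq2 or limma adjusted p 0.184, for Scn2a with DESeq2). The fold changes of Scn2a, Cacng1, Cacng3, Cacna1h and Cacng5 kept their sign in each of them: Scn2a lay between -0.89 and -0.31 and Cacng5 between 0.59 and 1.29. Their adjusted p-values ranged from 0.184 to 0.931. At an unadjusted p below 0.05 the lower genes numbered 4 in the main test, 2 with upper-quartile scaling and 2 with the replicate block. Leaving out 1 library gave medians of all tested channel genes from -0.13 to 0.17. Same-numbered libraries did not deviate together (correlation of deviations 0.014 over 17017 genes), and the labels tie the numbers to no litter or batch, so the replicate block pairs nothing known. Of the marker genes 1 passed in the main test, 8 without a filter and 17 with DESeq2, and of the partner genes 0 passed in each.

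Of 411 fold changes of 32 tested channel genes under alternatives, 378 kept sign and side and 33 changed sign, in 16 genes; the cause was not tested. On the TPM scale Cacna1g was at -0.39, Cacna1d at -0.030, Cacna1e at -0.00072, Cacng2 at -0.023 and Scn1a at 0.11. Cacna2d4 was at -1.06 with limma-voom and -0.20 with the replicate block. Upper-quartile scaling put Cacng7 at 0.012 and Scn8a at 0.038, and Scn8a was at 0.0064 at a mean CPM of at least 1, 0.016 with limma-voom, 0.012 with the replicate block and 0.022 over protein-coding genes. Leaving out 1 library gave the ranges -0.25 to 0.40 for Cacna1b, -0.22 to 0.99 for Cacna1c, -0.16 to 0.50 for Cacna1e, -0.22 to 0.34 for Cacna2d1, -6.34 to 2.82 for Cacna2d4, -0.28 to 1.01 for Cacnb2, -0.00063 to 0.041 for Cacnb3, -0.22 to 0.33 for Cacnb4, -0.10 to 0.16 for Cacng2, -0.29 to 0.20 for Cacng7, -0.55 to 0.57 for Scn1a, -0.49 to 0.010 for Scn2b, -0.20 to 0.22 for Scn8a and -0.61 to 0.94 for Scn9a. For shares of a family, CPM per kb of gene length in place of TPM gave differences of 1.34 points for Cacna1a, -7.12 for Cacna2d3 and 2.17 for Cacnb3. Leaving out 1 library gave -13.4 to -4.00 points for Cacna1h, -0.752 to 2.25 for Cacnb3, -6.16 to -3.10 for Cacng3, 3.33 to 7.14 for Cacng4, 4.42 to 17.3 for Scn3a and 1.63 to 4.42 for Scn3b. With 2 libraries a group, no exact test could pass the threshold, and the sparse genes Scn2b, Scn4b, Cacng7 and Cacng8 had standard errors of 0.50 to 0.92.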

Other observations

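Counts and TPM of a gene give an apparent transcript length, counts divided by TPM, scaled in each library by the median of that quotient over the deposited gene length, which moves when reads are assigned to longer or shorter transcripts. It was nearly the same in every library for some channel genes: for Cacnb3 it was 3093, 3180, 3174 and 3086 bases in Control 2, Control 3, cKO 2 and cKO 3, and for Cacng5 5040, 5084, 5122 and 4974 bases. For Cacna1g, the T-type Cav3.1 gene, it was 2613 and 3867 bases in Control 2 and Control 3 and 5012 and 4969 bases in cKO 2 and cKO 3, which is where its TPM and CPM part. For Scn1a it was 10700 and 10510 bases in Control 2 and cKO 3 and 5365 and 4617 bases in Control 3 and cKO 2, the same split as its CPM but not as its TPM. Cacna1c was at 18020, 18060, 9889 and 15490 bases in the order of the libraries above. Wide ranges over the libraries were also seen for Cacnb4 (4831 to 9131 bases), Cacna1d (4326 to 7296), Cacnb2 (3626 to 5875), Cacna2d2 (5514 to 7464) and Scn2a (7946 to 11110, both in cKO libraries). The table gives no values per transcript, so which transcripts were read is not known.

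Cacna2d4 had 17 and 29 counts in Control 2 and cKO 2 and 2 and 0 in Control 3 and cKO 3. The choroid plexus markers split the libraries in the same way, with 1102 and 445 TPM against 13.9 and 7.86 TPM, and neither followed the genotype. Within the higher pair the order differed: Cacna2d4 counts were higher in cKO 2, and the markers in Control 2. The TPM of Cacna2d4 reversed its counts there, at 1.14 in Control 2 and 0.308 in cKO 2. A shared source was not tested.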
